A study of Homo sapiens with 12 samples.

Results

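The genes described here are 10 members of the receptor tyrosine kinase pathways, 3 ligands and 7 receptors, of 60106 genes in the deposited tables. They are the ligands KITLG, AREG and EREG and the receptors KIT, EGFR, ERBB2, ERBB3, ERBB4, MET and IGF1R. KITLG was chosen by its measured difference between siFOXA1 and NSI, which was positive in both cell lines, and the other 9 were taken as genes of related pathways, so the comparison of siFOXA1 with NSI is given for all 10 genes as a description with no p-value. The samples were 12 RNA sequencing libraries of the human prostate cancer lines PC3 and VCaP, obtained from ATCC, with 3 libraries in each of 4 groups. The groups were PC3 with a non-targeting siRNA (NSI), PC3 with an siRNA against the forkhead transcription factor FOXA1 (siFOXA1), VCaP with NSI and VCaP with siFOXA1. PC3 was grown in RPMI and received 20 nM siRNA, and VCaP was grown in DMEM and received 40 nM. RNA was taken after 72 hours in all groups. PC3 libraries came from a stranded mRNA kit and were counted without strand, whereas VCaP libraries came from a total RNA kit and were counted by strand, so line, dose, medium, kit and strand cannot be told apart. PC3 derives from a bone metastasis, and VCaP derives from a vertebral metastasis and has a rearrangement of ERG. Both are established lines, and the labels do not say whether replicates were separate cultures, so the p-values given for other genes measure the spread between these libraries only.

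Receptor tyrosine kinases are cell surface proteins that dimerise when a ligand binds, phosphorylate each other and recruit adaptors that start the RAS, MAP kinase and PI3 kinase cascades. KITLG, also called stem cell factor, is the ligand of KIT, which is known for its roles in germ cells, mast cells, melanocytes and blood progenitors. AREG and EREG bind EGFR, the ErbB receptors EGFR, ERBB2, ERBB3 and ERBB4 pair with each other, MET binds hepatocyte growth factor, and IGF1R binds the insulin-like growth factors. In the prostate these receptors carry growth and survival signals between stroma and epithelium.

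The promoter windows of the 3 ligands are shown because KITLG and AREG were the members past the call rule in PC3 and EREG is the third ligand. Each window runs from 250 bases before to 50 bases after the start site, 5′ to 3′ on the gene's strand, and comes from RefSeq on GRCh38.p14. They are KITLG at chr12:88580422-88580721 on the minus strand, AREG at chr4:74444886-74445185 on the plus strand and EREG at chr4:74364895-74365194 on the plus strand. Capitals mark the letters TATAAA.
KITLG: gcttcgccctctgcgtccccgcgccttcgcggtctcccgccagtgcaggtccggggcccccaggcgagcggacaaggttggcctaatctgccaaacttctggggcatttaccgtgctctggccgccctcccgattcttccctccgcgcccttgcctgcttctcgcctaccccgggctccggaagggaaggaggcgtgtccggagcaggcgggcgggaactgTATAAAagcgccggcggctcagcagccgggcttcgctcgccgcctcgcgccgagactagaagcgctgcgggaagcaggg
AREG: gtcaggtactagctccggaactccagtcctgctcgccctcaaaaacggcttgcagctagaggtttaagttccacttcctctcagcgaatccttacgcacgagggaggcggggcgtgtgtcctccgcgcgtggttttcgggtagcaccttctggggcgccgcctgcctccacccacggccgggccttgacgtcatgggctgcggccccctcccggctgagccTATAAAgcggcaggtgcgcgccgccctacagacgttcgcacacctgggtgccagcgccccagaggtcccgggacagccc
EREG: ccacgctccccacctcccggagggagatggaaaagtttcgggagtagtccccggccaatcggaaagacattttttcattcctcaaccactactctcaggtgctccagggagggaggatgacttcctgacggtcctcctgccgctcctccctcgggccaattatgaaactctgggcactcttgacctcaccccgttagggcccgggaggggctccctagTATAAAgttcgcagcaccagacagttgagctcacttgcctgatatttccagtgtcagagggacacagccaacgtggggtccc
TATAAA, searched on the gene's strand only and chosen after the windows had been read, began 29 bases before the start site in KITLG, 29 in AREG and 32 in EREG. It was found in 7.33% of all 35116 windows of this length, and began 25 to 35 bases before the start in 2.17% of them. Of the members, 9 had a window (ERBB3 had none), and EGFR had 2. TATAAA was in none of the receptors' windows except the second of EGFR. The forkhead letters TGTTTAC, found on either strand in 3.42% of all windows, were in none of the 10 windows of the members. Neither were TATTTAC, found in 2.67% of all windows, nor TGTTTGC, found in 3.89%, and 9.57% held any of these. This absence says only that these letters are not in these windows.

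The libraries held 123143004 to 188229036 counts in PC3 and 48189909 to 59842014 in VCaP, so a gene near 0 was measured with less depth in VCaP. Levels are counts scaled to a common library size (CPM), with normalisation by TMM within a line. FOXA1, the siRNA target, was at 271 ± 30.02 CPM in NSI and 169 ± 11.4 CPM in siFOXA1 in PC3, and at 489.3 ± 47.0 and 80.5 ± 6.18 CPM in VCaP (SD, n = 3 each). The remaining level was 62.3% of NSI in PC3 and 16.5% in VCaP. Of the luminal markers, KLK3 lay between 46.3 and 102.1 CPM in VCaP and at most at 0.0215 CPM in PC3, whereas HOXB13 lay between 259.1 and 369.2 CPM in PC3 and between 209.4 and 274.6 CPM in VCaP. SLC45A3 lay between 18.6 and 21.5 CPM in PC3 and between 18.6 and 159.3 CPM in VCaP. Of 5 luminal markers (KLK2, KLK3, HOXB13, TMPRSS2 and SLC45A3), 4 were called lower with siFOXA1 in VCaP and none higher, and of 3 tested in PC3, 1 was called lower and none higher. ERG lay between 215.6 and 255.9 CPM in VCaP and at most at 0.0715 CPM in PC3. Epithelial markers such as EPCAM and KRT18 were present in every library of both lines. Among other cell types, the summed level of the 5 mast cell markers lay between 0.0174 and 0.119 CPM in VCaP NSI and between 0.0190 and 0.119 CPM in VCaP siFOXA1, with CPA3 at 0 in all libraries. The 6 fibroblast markers summed to 24.7 to 29.0 CPM in PC3 NSI and 43.9 to 49.1 CPM in PC3 siFOXA1, and to 11.01 to 20.4 and 1.57 to 7.55 CPM in VCaP. The 5 leukocyte markers summed to 0.521 to 0.625 and 1.12 to 1.21 CPM in PC3, and to 0.920 to 1.31 and 2.44 to 3.21 CPM in VCaP. Interferon response genes were called higher in PC3 for 24 of 24 genes, with a median log2 fold change of 3.54, and in VCaP 9 of 18 tested were called higher and 4 lower. Of the 25 cell cycle genes, 16 were called lower in PC3 and 24 in VCaP. The part of these lists in the members' values was not tested.

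KITLG (ENSG00000049130.15_3, GRCh37 chromosome 12, 88886570 to 88974628, minus strand) was higher with siFOXA1 in both lines. In PC3 it was at 11.9, 12.0 and 11.4 CPM in the NSI libraries and at 45.0, 40.4 and 44.1 CPM in the siFOXA1 libraries. In VCaP it was at 18.05, 18.2 and 13.9 CPM in NSI and at 66.6, 61.3 and 63.8 CPM in siFOXA1. All siFOXA1 libraries lay above all NSI libraries in each line, with a gap wider than the spread of either group. In bulk samples such as these, fewer or more cells with a transcript and less or more RNA per cell cannot be told apart. The mean went from 11.7 ± 0.328 to 43.2 ± 2.42 CPM in PC3 and from 16.7 ± 2.43 to 63.9 ± 2.66 CPM in VCaP (SD, n = 3 each). The log2 fold change of siFOXA1 over NSI was 1.88 (SE 0.09) in PC3 and 1.94 (SE 0.10) in VCaP. These sizes differed by 0.04 on the log2 scale (SE 0.14), which is less than its error. The sign of this difference turned under 2 of the scaling and filter settings and when any of 4 libraries was left out. KITLG was chosen for its positive difference in both lines, so the likeness of the sizes follows in part from the choice. FOXA1 itself was lowered more in VCaP, and its part in these sizes was not tested. Only 1.37% of the KITLG exons overlap another gene's exons, on the opposite strand.

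**Figure D1:**
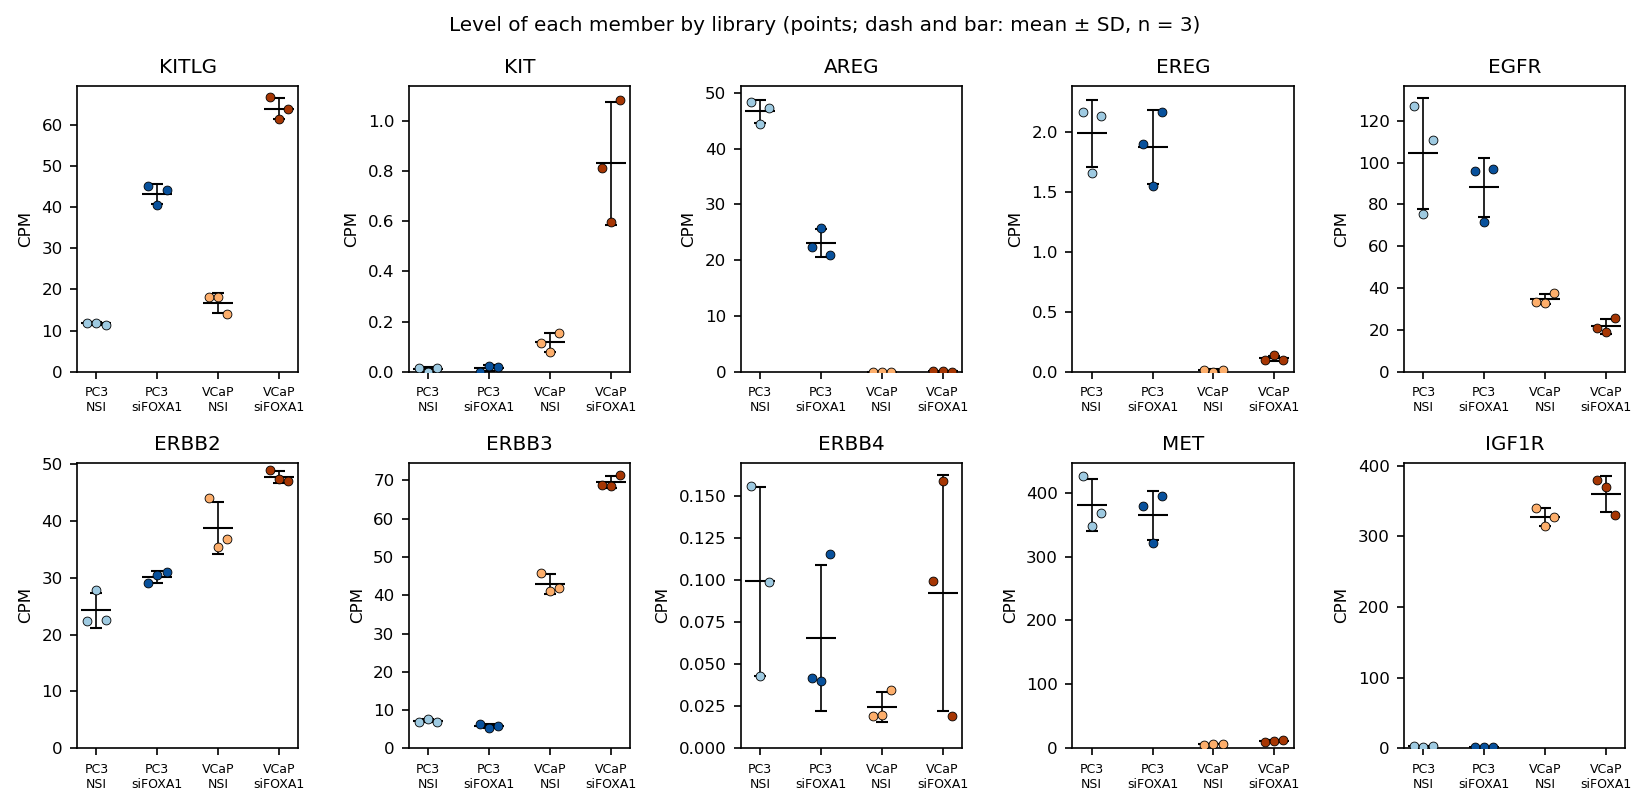
Level of each member in CPM (linear axes from 0, a scale of its own in each panel) in the 4 groups; points are libraries, and the dash and bar are the mean ± SD of 3. The KITLG points of siFOXA1 lie between 40.4 and 66.6 CPM and those of NSI between 11.4 and 18.2 CPM.

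The genes whose pattern was most like that of KITLG were found by the correlation of log2(CPM + 1) over 12 libraries, after the mean of each line had been subtracted. Among 9879 genes compared, the highest Pearson coefficients were 0.995 for FAS, a death receptor, 0.995 for CASP10, a caspase that acts after such receptors, 0.994 for NHLRC3, 0.992 for DNAJB4, a heat shock protein cofactor, and 0.989 for PI4K2B, a lipid kinase. The points share their libraries, groups and depth, so the coefficients describe likeness and were not tested. FAS had log2 fold changes of 1.20 in PC3 and 1.18 in VCaP. CASP10 had 2.08 and 2.19, NHLRC3 1.01 and 1.04, DNAJB4 1.44 and 1.49, and PI4K2B 0.59 and 0.56. Since these genes were picked for a pattern like that of KITLG in both lines, the likeness of these values between the lines follows from the choice.

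KIT (ENSG00000157404.15_2, chromosome 4, 55524085 to 55606881, plus strand), the receptor of KITLG, was close to 0 in PC3 and low in VCaP. In PC3 the 3 NSI libraries held 5 counts together and the 3 siFOXA1 libraries 6, too few for the filter on low counts, so KIT was not tested there. In VCaP it gave 6, 4 and 9 counts with NSI and 41, 30 and 57 with siFOXA1, or 0.115, 0.0796 and 0.156 CPM and 0.813, 0.596 and 1.08 CPM. The VCaP groups did not overlap, and the highest NSI library was well below the lowest siFOXA1 library. KIT passed the filter on low counts there only through its siFOXA1 libraries, so the fit is given as a value only. The log2 fold change in VCaP was 2.79 (SE 0.34), and the ratio of summed counts was 6.96, with an exact 95% interval of 4.28 to 11.9 that covers counting error only. Even so, the mean of 0.831 ± 0.245 CPM in siFOXA1 was far below the 63.9 ± 2.66 CPM of its ligand. The markers of mast cells, a cell type known for KIT, summed to at most 0.119 CPM in either VCaP group. Those of melanocytes, another such cell type, summed to 0.434 to 0.654 CPM in VCaP NSI and 0.576 to 0.872 CPM in VCaP siFOXA1. PMEL alone was at 0.382 to 0.674 CPM over the VCaP libraries. The part of either cell type in the KIT values was not tested.

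AREG (ENSG00000109321.10_3, chromosome 4, 75310851 to 75320726, plus strand), amphiregulin, was the only member past the call rule in the lower direction in the fit of the 6 PC3 libraries without the replicate block. It was at 48.4, 44.4 and 47.3 CPM in PC3 NSI and at 22.4, 25.8 and 20.9 CPM in PC3 siFOXA1. The groups did not overlap, and siFOXA1 held 49.3% of the NSI mean. The log2 fold change was −1.02 (SE 0.10). AREG values are uncertain because the annotation holds a near copy, AREGB, at 75480629 to 75490486 on the same chromosome. Of 946 stretches of 50 bases in the AREG exons, 912 (96.4%) are also found in the AREGB span, and fragments that map to both were divided between them. The sum of AREG and AREGB is not changed by a division between them, and it was at 89.2, 82.2 and 87.5 CPM in NSI and at 41.9, 48.9 and 38.6 CPM in siFOXA1, a log2 fold change of −1.0004 (SE 0.10). AREG held 54.1% of the sum in NSI and 53.5% in siFOXA1. VCaP had almost none: the deposited counts of AREG were 2, 1.5 and 0.5 in NSI and 5.5, 5 and 0.5 in siFOXA1. These overlap and were too few to be tested within VCaP.

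EREG (ENSG00000124882.3_2, chromosome 4, 75230860 to 75254468, plus strand), epiregulin, did not follow AREG in PC3. It was at 2.16, 1.66 and 2.13 CPM in PC3 NSI and 1.90, 1.55 and 2.17 CPM in PC3 siFOXA1. These groups overlapped, and the log2 fold change of −0.08 (SE 0.17) was under its error and turned to 0.00975 with library size alone as scaling. In VCaP, EREG had 1, 0 and 1 counts with NSI and 5, 7 and 5 with siFOXA1. The groups did not overlap, but with 2 counts against 17 in all the ratio of 8.78 has an exact 95% interval of 2.09 to 78.4 for counting error alone, and the gene was not tested in VCaP.

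EGFR (ENSG00000146648.17_3, chromosome 7, 55086714 to 55279321, plus strand), the receptor of both AREG and EREG, was lower with siFOXA1 in VCaP. There it was at 33.6, 33.0 and 37.8 CPM in NSI and at 20.8, 18.8 and 25.6 CPM in siFOXA1, with no overlap. The log2 fold change was −0.68 (SE 0.11). In PC3 it was at 127.2, 75.3 and 110.7 CPM in NSI and at 95.8, 71.8 and 96.8 CPM in siFOXA1. The PC3 groups overlapped, with the library numbered 2 the lowest of each, and the log2 fold change of −0.24 (SE 0.19) did not pass the call rule. With the replicate number as a block it was −0.22 (SE 0.07) and passed. In the numbered pairs, siFOXA1 was lower than NSI in 3 of 3, at 0.753, 0.953 and 0.874 of the NSI level.

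ERBB2 (ENSG00000141736.13_3, chromosome 17, 37844167 to 37884915, plus strand), the ErbB receptor that binds no known ligand and acts as a partner, was slightly higher with siFOXA1 in each line. In PC3 it was at 22.4, 27.8 and 22.6 CPM in NSI and at 29.0, 30.4 and 31.0 CPM in siFOXA1. In VCaP it was at 44.1, 35.5 and 36.9 CPM in NSI and at 48.9, 47.4 and 47.0 CPM in siFOXA1. The groups did not overlap in either line, but 1 NSI library in each was close to the siFOXA1 libraries. The log2 fold change was 0.31 (SE 0.10) in PC3, which did not pass the call rule, and 0.30 (SE 0.08) in VCaP, which did. The PC3 value passed in 6 of the other settings, the replicate block among them (0.32, SE 0.08), and was 0.47 without NSI replicate 2. The VCaP value lost its call without NSI replicate 2 (0.23) or without siFOXA1 replicate 1 (0.28). In PC3, 3.43% of the ERBB2 exons overlap PGAP3 on the other strand, and the unstranded counts cannot separate them.

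ERBB3 (ENSG00000065361.15_4, chromosome 12, 56473645 to 56497289, plus strand), a neuregulin receptor with little kinase activity of its own, had opposite signs in the lines. In VCaP it was at 45.9, 41.1 and 41.9 CPM in NSI and at 68.9, 68.5 and 71.4 CPM in siFOXA1, a log2 fold change of 0.70 (SE 0.06). In PC3, where it was lower throughout, it was at 6.86, 7.63 and 7.00 CPM in NSI and at 6.24, 5.42 and 5.88 CPM in siFOXA1. Neither line's groups overlapped, with siFOXA1 above NSI in VCaP and below it in PC3. The PC3 log2 fold change of −0.29 (SE 0.11) passed the call rule, of the settings tried, only with the replicate block (−0.29, SE 0.10) and in the fit of all 12 libraries (−0.25). Subtracting the PC3 effect from the VCaP effect gave 0.97 (SE 0.12). ERBB4 (ENSG00000178568.14_4, chromosome 2, 212240442 to 213403565, minus strand), the fourth ErbB receptor, was near 0 in every group. It had 23, 6 and 18 counts in PC3 NSI and 6.5, 5 and 19.67 in PC3 siFOXA1, which overlap, with a log2 fold change of −0.56 (SE 0.59). It had 1, 1 and 2 counts in VCaP NSI and 5, 8 and 1 in VCaP siFOXA1, too few to be tested.

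MET (ENSG00000105976.14_3, chromosome 7, 116312446 to 116438440, plus strand) was abundant in PC3 and scarce in VCaP. In PC3 it was at 426, 348 and 368 CPM in NSI and at 378, 321 and 394 CPM in siFOXA1. These groups overlapped, and the log2 fold change of −0.06 (SE 0.11) was under its error and turned to 0.03 with library size alone as scaling. In VCaP it was at 5.95, 6.33 and 6.49 CPM in NSI and at 10.1, 11.5 and 12.8 CPM in siFOXA1. Here siFOXA1 lay above NSI in every library, with a log2 fold change of 0.87 (SE 0.10). The VCaP effect minus the PC3 effect was 0.92 (SE 0.16).

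IGF1R (ENSG00000140443.13_3, chromosome 15, 99192200 to 99507759, plus strand) had the reverse distribution, abundant in VCaP and scarce in PC3. In VCaP it was at 341, 314 and 327 CPM in NSI and at 379, 369 and 331 CPM in siFOXA1. The groups overlapped, and the log2 fold change of 0.14 (SE 0.08) did not pass the call rule. In PC3 it was at 3.29, 1.90 and 2.63 CPM in NSI and at 2.07, 1.33 and 1.97 CPM in siFOXA1. Those groups overlapped as well, at a log2 fold change of −0.54 (SE 0.23) that did not pass. The value passed with the replicate block (−0.53, SE 0.12) and without NSI replicate 2 (−0.67). In the numbered pairs siFOXA1 was lower in 3 of 3.

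**Figure D2:**
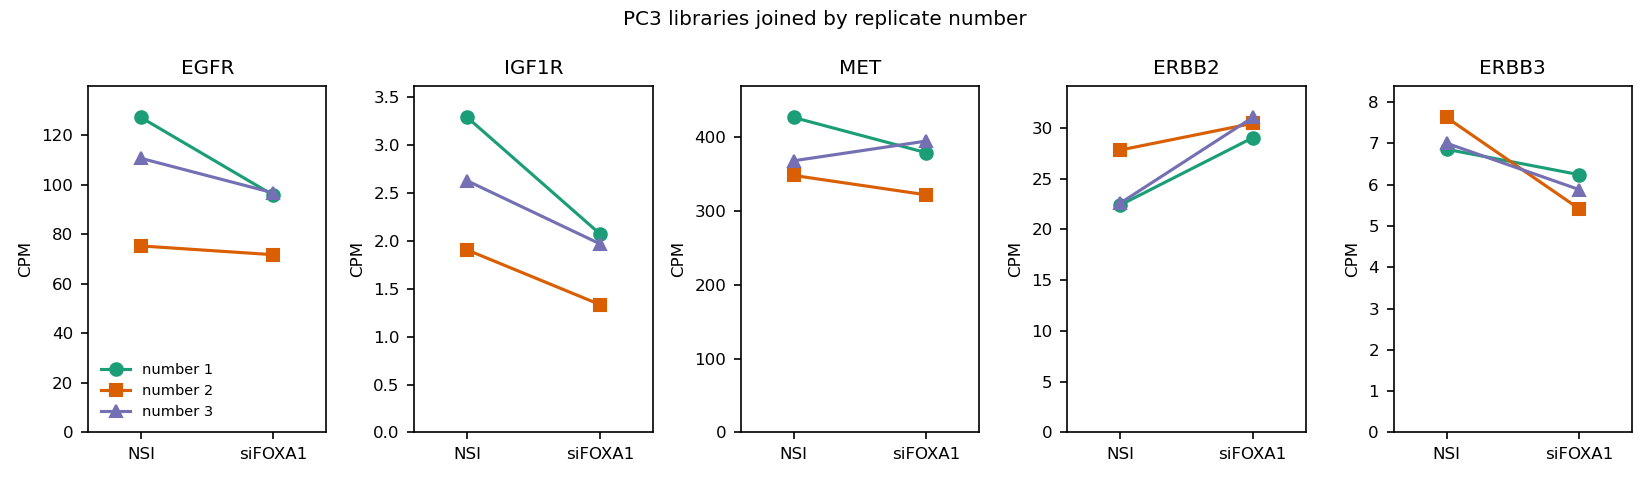
Level in CPM (linear axes from 0) of 5 receptors in the PC3 libraries, with NSI and siFOXA1 libraries of the same replicate number joined by a line. EGFR, IGF1R and ERBB3 are lower with siFOXA1 in 3 of 3 pairs, ERBB2 is higher in 3 of 3, and MET is lower in 2 and higher in 1.

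Counted over the members, 2 of 9 tested in PC3 passed the call rule, an adjusted p under 0.05 in the edgeR quasi-likelihood test, against 27.7% of all 26478 genes tested. KITLG was the 1 called higher and AREG the 1 called lower, beside 13.9% of all genes in each direction. With library size alone as scaling, 64.3% of the PC3 calls over all genes were higher, against 50.04% with TMM. With the replicate block, 6 of 9 members passed, and 11333 of all 26478 genes tested, against 7344 of the same 26478 without it. Over all genes, 3963 were called without PC3 siFOXA1 replicate 1 and 4738 without NSI replicate 3. In VCaP 6 of 7 tested members passed, against 45.8% of 22939 genes. The 5 called higher were KITLG, KIT, ERBB2, ERBB3 and MET, beside 22.5% of all genes, and the 1 called lower was EGFR, beside 23.3%. KIT, with 6, 4 and 9 counts in VCaP NSI, passed the filter on low counts only through its siFOXA1 libraries. Its call and its lack of overlap in VCaP are therefore given as values only. The groups did not overlap for 4 of 9 tested members in PC3, against 45.1% of all genes, and for 6 of 7 in VCaP, against 55.9%. Of the 6 members tested in both lines, the VCaP effect minus the PC3 effect passed for ERBB3 and MET, against 31.3% of 19282 such genes and 22.1% of all 30450 in that fit. AREG and EREG also passed, but they entered the fit only through their PC3 counts and are not counted here. The AREG difference of 2.29 (SE 0.63) and the EREG difference of 3.09 (SE 0.73) rest on few VCaP counts. Since the members were proposed from these contrasts, the shares are given as a description.

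**Figure D3:**
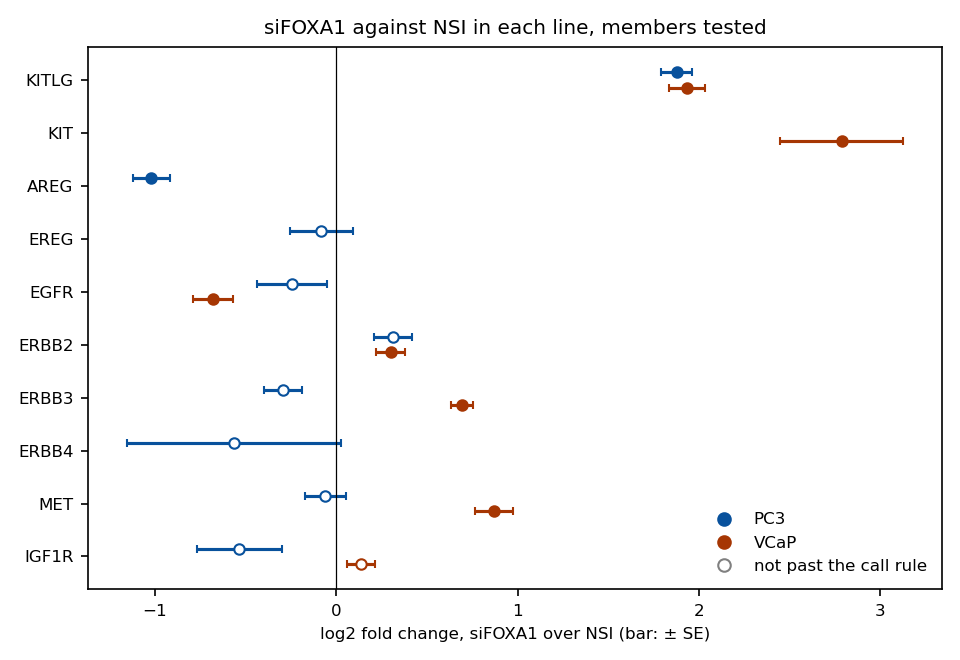
Log2 fold change of siFOXA1 over NSI (x axis, 0 meaning no difference) for each member tested in PC3 (blue) and VCaP (brown), with bars of ± SE; open points did not pass the call rule, and a missing point was not tested. KITLG is at 1.88 and 1.94 in PC3 and VCaP, and AREG is at −1.02 in PC3. In the same order ERBB3 is at −0.29 and 0.70, MET at −0.06 and 0.87, and IGF1R at −0.54 and 0.14. The PC3 points of ERBB3, MET and IGF1R are open, as is the VCaP point of IGF1R, and MET in PC3 is under its error.

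To compare genes with each other, levels were divided by the exon length in the deposited tables and are given as CPM per kb. In PC3 NSI the order was MET at 56.9, AREG at 37.7, EGFR at 9.22, ERBB2 at 4.29, KITLG at 2.02, ERBB3 at 0.964, EREG at 0.430, IGF1R at 0.221, ERBB4 at 0.0082 and KIT at 0.0019 CPM per kb, and no neighbours in this order overlapped between libraries. AREG is counted here without the fragments assigned to its near copy AREGB, which was at 24.0 CPM per kb in PC3 NSI. The place of AREG below MET in PC3 NSI is therefore uncertain. With siFOXA1, KITLG at 7.41 CPM per kb stood above ERBB2 at 5.33 and overlapped EGFR at 7.78. In VCaP NSI the order was IGF1R at 27.7, ERBB2 at 6.85, ERBB3 at 5.79, EGFR at 3.07, KITLG at 2.87, MET at 0.935, AREG at 0.0257, KIT at 0.0226, EREG at 0.0026 and ERBB4 at 0.0020 CPM per kb. EGFR overlapped KITLG there, AREG overlapped KIT, and EREG overlapped ERBB4. With siFOXA1 in VCaP, KITLG at 10.98 CPM per kb was second only to IGF1R at 30.5, above ERBB3 at 9.37 and ERBB2 at 8.43, with no overlap among these 4. Among the 3 ligands described here, KITLG had the highest level in VCaP, whereas AREG had it in PC3 in both conditions, at 18.6 CPM per kb with siFOXA1.

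**Figure D4:**
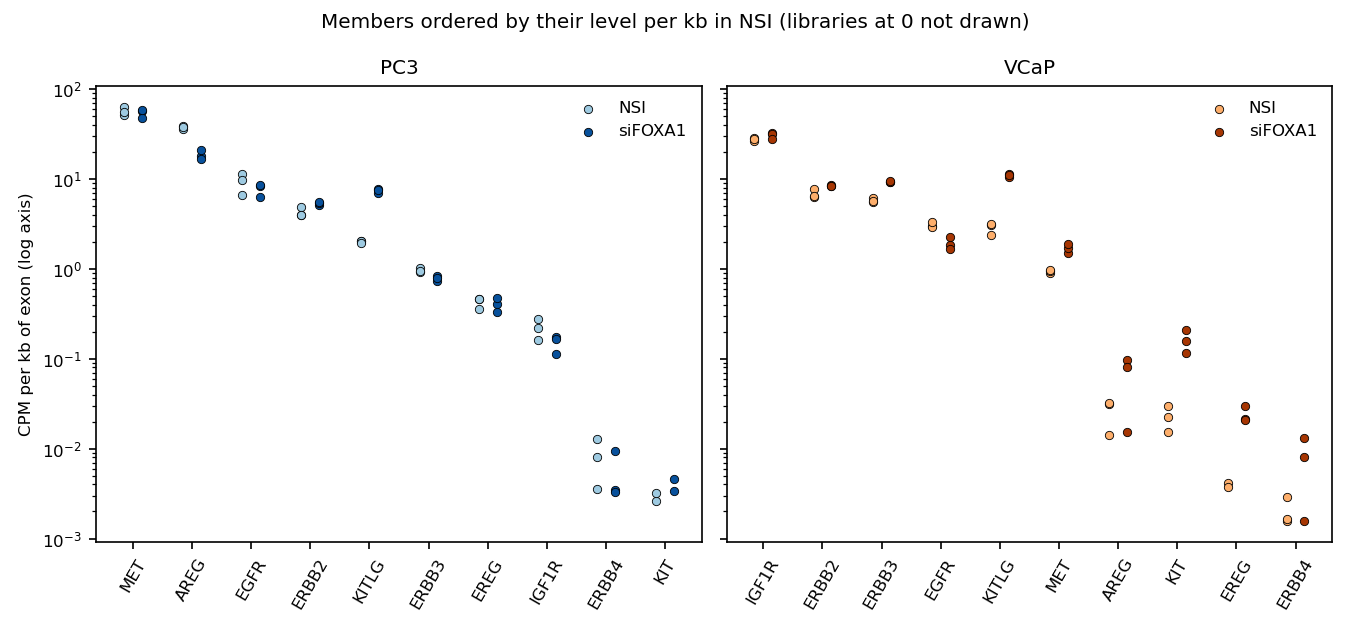
Level of each member per kb of exon (log axis) in PC3 and VCaP, ordered by the NSI mean, with 1 point per library and libraries at 0 left out. KITLG moves from 2.02 to 7.41 CPM per kb in PC3 and from 2.87 to 10.98 in VCaP, and MET and IGF1R head the order in opposite lines. AREG is drawn without the fragments assigned to AREGB, so its place below MET in PC3 NSI is uncertain.

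Around the members, 154 further genes of the pathways were examined in 6 lists, with tests over all genes. In PC3 53 of 139 tested were called (38.1%, beside 27.7% of all genes), 29 higher and 24 lower, with a median log2 fold change of 0.04 beside −0.01 over all genes. The split was 35 higher and 15 lower with library size alone as scaling, and 34 and 18 with a filter of 1 CPM. With the replicate block 75 were called, 38 higher and 37 lower. The PC3 count was 30 without NSI replicate 3 and 30 without siFOXA1 replicate 1. In VCaP 89 of 126 tested were called (70.6%, beside 45.8% of all genes), 43 higher and 46 lower, with a median of −0.04 beside 0.02 over all genes. The lists were drawn up with earlier results of these data known, and the shares describe them only.

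Among the other ErbB ligands, 3 of 8 tested were called higher and 1 lower in PC3, and 3 of 7 higher and 1 lower in VCaP. TGFA, another ligand of EGFR, rose in the PC3 libraries from 13.5 ± 2.91 to 37.8 ± 4.71 CPM (SD, n = 3), at a log2 fold change of 1.48 (SE 0.17, edgeR adjusted p 0.000464). Its VCaP level fell from 6.27 ± 0.872 to 4.34 ± 0.262 CPM (log2 fold change −0.53, SE 0.12, edgeR adjusted p 0.00608), and the effects differed between the lines (edgeR adjusted p 8.78e-06). EGF, the founding ligand of the family, rose in both, with log2 fold changes of 0.96 (SE 0.20, edgeR adjusted p 0.00896) and 1.08 (SE 0.14, edgeR adjusted p 0.000213). It stayed low, at 1.63 ± 0.250 CPM in PC3 siFOXA1 and 8.15 ± 0.726 CPM in VCaP siFOXA1. HBEGF, a ligand of EGFR and ERBB4, rose in VCaP by a log2 fold change of 0.74 (SE 0.10, edgeR adjusted p 0.000287). NRG2, a neuregulin, fell in PC3 from 30.6 ± 2.11 to 20.9 ± 1.86 CPM (log2 fold change −0.55, SE 0.10, edgeR adjusted p 0.00469). The neighbours of AREG and EREG in function included called changes in both directions within PC3.

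Of the ligands of MET, IGF1R and the relatives of KIT, with the IGF-binding proteins, 6 of 15 tested were called higher and 1 lower in PC3, and 7 of 12 higher and 2 lower in VCaP. HGF, the ligand of MET, fell in VCaP from 57.5 ± 11.8 to 5.87 ± 1.502 CPM, a log2 fold change of −3.29 (SE 0.19, edgeR adjusted p 1.70e-06). Its receptor MET was higher in the same libraries. IGFBP5 and IGFBP3, which bind insulin-like growth factors, rose in VCaP by log2 fold changes of 5.04 (SE 0.19, edgeR adjusted p 2.20e-07) and 3.43 (SE 0.15, edgeR adjusted p 3.88e-07). IGFBP3 reached 1564 ± 106.8 CPM from 144.9 ± 30.4 CPM. CSF1 and FLT3LG, ligands of receptors related to KIT, rose in PC3, with log2 fold changes of 1.89 (SE 0.11, edgeR adjusted p 1.58e-05) and 1.79 (SE 0.25, edgeR adjusted p 0.00135). IGF2, a ligand of IGF1R, fell in PC3 (log2 fold change −1.07, SE 0.21, edgeR adjusted p 0.00636). IGF2 and FLT3LG are uncertain, because 73.7% and 64.2% of their exons overlap other genes on the same strand and fragments there were divided.

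Of the other receptor tyrosine kinases, 7 of 38 tested were called higher and 8 lower in PC3, and 9 of 33 higher and 14 lower in VCaP. In PC3 TIE1, an endothelial receptor, rose from 0.769 ± 0.0336 to 3.73 ± 0.477 CPM, a log2 fold change of 2.28 (SE 0.15, edgeR adjusted p 2.27e-05). EPHA7, an ephrin receptor, rose in PC3 by 2.06 (SE 0.13, edgeR adjusted p 2.23e-05) on the log2 scale. The WNT receptor RYK fell there from 68.9 ± 5.82 to 30.8 ± 2.52 CPM (log2 fold change −1.16, SE 0.10, edgeR adjusted p 0.000112), and FGFR4 had a log2 fold change of −1.04 (SE 0.16, edgeR adjusted p 0.00237). In VCaP MERTK, a receptor used in the uptake of dying cells, rose from 17.3 ± 0.822 to 59.6 ± 4.07 CPM (log2 fold change 1.79, SE 0.07, edgeR adjusted p 2.40e-07), and the neurotrophin receptor NTRK2 rose by 1.80 (SE 0.25, edgeR adjusted p 0.000349) on the log2 scale. EPHB3 and FLT4 fell in VCaP, at log2 fold changes of −1.57 (SE 0.09, edgeR adjusted p 1.78e-06) and −1.52 (SE 0.15, edgeR adjusted p 4.61e-05).

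Of the adaptors and cascade kinases, 5 of 35 tested were called higher and 3 lower in PC3, and 8 of 38 higher and 16 lower in VCaP. AKT1, a kinase that acts after PI3 kinase, fell in VCaP from 158.95 ± 8.93 to 49.9 ± 5.15 CPM (log2 fold change −1.67, SE 0.09, edgeR adjusted p 8.60e-07). PIK3R1, a regulatory subunit of PI3 kinase, rose there from 67.0 ± 4.35 to 139.9 ± 9.55 CPM (log2 fold change 1.06, SE 0.07, edgeR adjusted p 4.92e-06). STAT5A, which is activated by KIT among others, rose in VCaP by 0.59 (SE 0.17, edgeR adjusted p 0.0203) on the log2 scale, a call lost in 5 of 15 other settings (edgeR adjusted p 0.0111 to 0.0670 over all 15). Those 5 were the fit of all 12 libraries and the fits that left out the VCaP library numbered 2 or 3 of either group. In PC3 the adaptor GRB7 rose by 0.63 (SE 0.11, edgeR adjusted p 0.00352) and GRB14 had a log2 fold change of −1.66 (SE 0.23, edgeR adjusted p 0.00120). SHC1, an adaptor of the ErbB receptors, rose in PC3 by 0.52 (SE 0.13, edgeR adjusted p 0.0180). That call was lost without siFOXA1 replicate 3, and the edgeR adjusted p ranged from 0.000502 to 0.0609 over 15 settings. The docking protein GAB2 fell in VCaP by 1.09 on the log2 scale (SE 0.12, edgeR adjusted p 9.36e-05). In PC3 its log2 fold change was −0.43 (SE 0.12, edgeR adjusted p 0.0265), a call lost in 7 of 15 other settings, 5 of which left out 1 library (every library but siFOXA1 replicate 3), with adjusted p from 0.00341 to 0.118 over all 15.

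Feedback inhibitors and genes induced by ERK were called higher in 4 and lower in 11 of 31 tested in PC3, and higher in 12 and lower in 11 of 27 in VCaP. DUSP4 and DUSP5, phosphatases that act on MAP kinases, fell in PC3, DUSP4 from 351.1 ± 34.7 to 187.9 ± 6.71 CPM (log2 fold change −0.90, SE 0.10, edgeR adjusted p 0.000348) and DUSP5 by 0.89 (SE 0.10, edgeR adjusted p 0.000353) on the log2 scale. DUSP5 rose in VCaP from 1.21 ± 0.132 to 16.2 ± 2.35 CPM (log2 fold change 3.74, SE 0.14, edgeR adjusted p 2.31e-07), and DUSP4 rose there as well. The effects of DUSP5 differed between the lines by 4.62 (SE 0.18, edgeR adjusted p 3.23e-10). SPRY4 and SPRED1, inhibitors of the RAS cascade, fell in VCaP, at log2 fold changes of −3.55 (SE 0.39, edgeR adjusted p 7.77e-05) and −2.24 (SE 0.12, edgeR adjusted p 1.26e-06). PHLDA1, which is induced by ERK, rose in VCaP by 1.95 (SE 0.15, edgeR adjusted p 8.08e-06). FOS, an early target of ERK, rose in PC3 from 29.3 ± 5.15 to 61.8 ± 8.37 CPM (log2 fold change 1.08, SE 0.15, edgeR adjusted p 0.00129). SH2B3, an adaptor that restrains KIT signalling, rose in PC3 by 0.83 (SE 0.10, edgeR adjusted p 0.000603). The list held changes of both signs in each line, also among inhibitors of the same cascade.

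Of the proteases and their partners that release ligands or cut receptors, 4 of 12 tested were called higher and none lower in PC3, and 4 of 9 higher and 2 lower in VCaP. MMP14, a membrane protease, rose in PC3 from 236.2 ± 5.66 to 466.6 ± 18.1 CPM (log2 fold change 0.98, SE 0.08, edgeR adjusted p 7.26e-05), and MMP2 rose by 1.13 (SE 0.24, edgeR adjusted p 0.00951). In VCaP ADAM12, which can release HBEGF, rose from 0.861 ± 0.131 to 2.39 ± 0.164 CPM (log2 fold change 1.47, SE 0.16, edgeR adjusted p 6.35e-05). RHBDF1, a partner of ADAM17, rose by 0.37 (SE 0.07, edgeR adjusted p 0.00173). BACE1 and ADAM15 fell in VCaP, at log2 fold changes of −0.76 (SE 0.07, edgeR adjusted p 1.71e-05) and −0.61 (SE 0.09, edgeR adjusted p 0.000411).

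**Figure D5:**
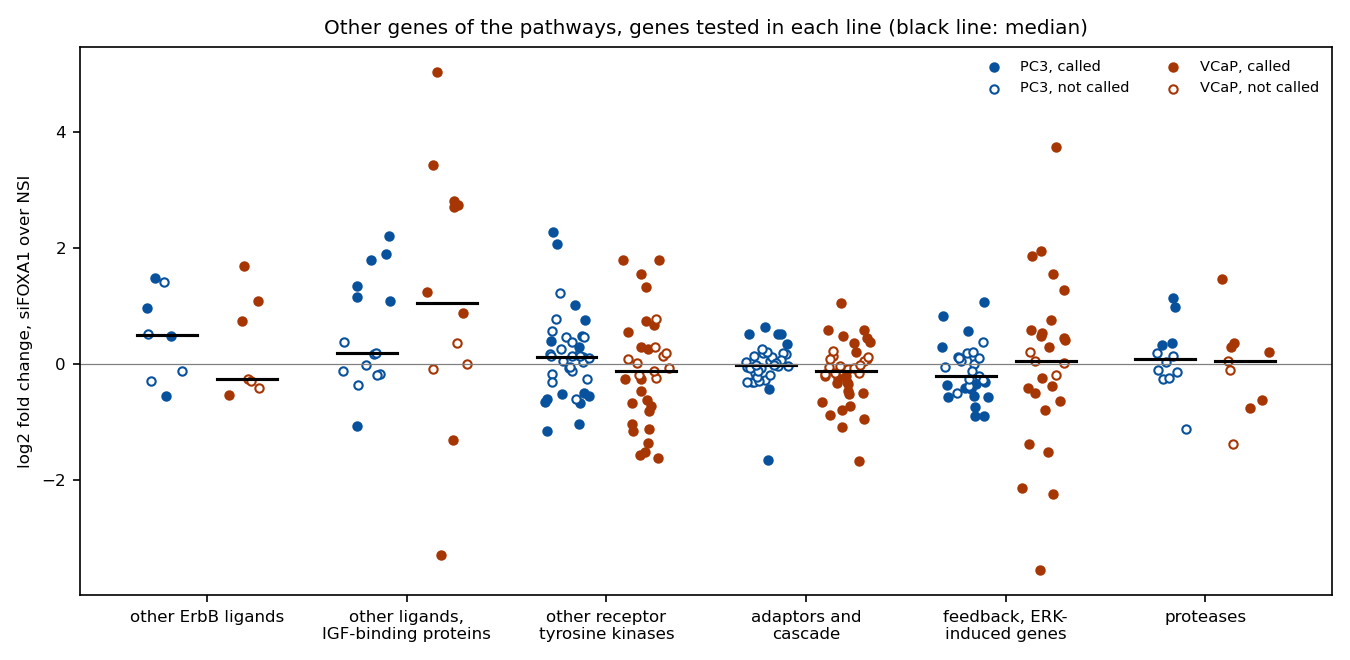
Log2 fold change of siFOXA1 over NSI for the other pathway genes tested, by list and line; filled points were called, open points were not, and the black line is the median of a list. Points lie on both sides of 0 in every list and line, and the highest values are those of IGFBP5 (5.04) and DUSP5 (3.74) in VCaP.

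Of 114 pathway genes tested in both lines, 9 were called higher in both, as KITLG was, and 7 lower in both. The first were ADAM12, DDR1, EGF, FOS, IGFBP3, IGFBP5, MERTK, SHC1 and SPRY1, and the second AKT2, EPHB3, FGFR4, GAB2, PDGFRB, ROR1 and SPRED1. A further 14 were called in opposite directions, namely BACE1, CBLB, DUSP4, DUSP5, DUSP6, EPHA1, EPHA7, ERRFI1, HGF, IGF2, IRS2, PHLDA1, RYK and TGFA. Over all 19282 genes tested in both lines, 4.57% were called higher in both, 6.48% lower in both and 5.09% in opposite directions, against 7.89%, 6.14% and 12.3% of these pathway genes, which is a description. Among the members tested in both lines, KITLG was called in the same direction in both. It was chosen for its positive difference in both lines, so this outcome follows from the choice. With the replicate block ERBB2 was also called higher in both and EGFR lower in both. ERBB3 was called in opposite directions with the block and in the fit of all 12 libraries.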

How the data were processed

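Libraries were grouped by their titles into NSI and siFOXA1 in each of 2 lines, 3 replicates each. The authors deposited expected counts (estimated counts, not normalized), 1 table per library. Per the file headers they came from featureCounts 2.0.0 with the GENCODE v28lift37 basic annotation on GRCh37, fragments needed both ends mapped, and those mapping to several places or genes were divided among them, PC3 without strand and VCaP by reverse strand. The submitters' processing notes name STAR 2.7.3a and Subread 2.0.0.

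Counts were rounded to whole numbers. The 6 libraries of a line were fitted alone by edgeR 4.0.16 under R 4.3.3 (TMM, filterByExpr, two-sided quasi-likelihood test, Benjamini-Hochberg adjustment over all genes tested, calls at an adjusted p under 0.05), and the difference between lines was the interaction term over 12 libraries. SE is the log2 fold change over the square root of F. Biological coefficients of variation were 14.9% in PC3 and 9.89% in VCaP, and replicates differed by more than counting noise (chi-square per degree of freedom 9.77 to 141.0). Same-numbered PC3 libraries deviated together (correlations 0.493, 0.625 and 0.238 across genes), which the titles do not explain, so the replicate block is given beside PC3 results whose call it changes.

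The members and lists were chosen with earlier results of these data known. Members are named in full. In each pathway list and line, the text names up to 2 genes called higher and 2 called lower with the largest log2 fold changes at a mean of at least 1 CPM, and 5 genes for likeness to KITLG whose means reached 5 CPM in both lines. Alternatives were DESeq2 1.42.0, its size factors, library size alone, other filters, the replicate block, leaving out each library, a fit of all 12 libraries, and, chosen after seeing the data, rounding to even numbers at ties and summing AREG with AREGB. Marker lists for melanocytes and endothelium had 0 and 0 genes called in PC3, and 0 and 1 in VCaP. Of the luminal list, 5 markers are reported. Of the 5 epithelial markers, 1 was called higher and 3 lower in PC3, and 1 higher and 1 lower in VCaP. ERG was not called in VCaP.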

Additional observations from a re-analysis of the deposited data

Results flagged for a closer look

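The interaction term of the edgeR fit over 12 libraries passed the call rule for 4 members and 31 of the named pathway genes. It passed for 22.1% of all 30450 genes in that fit and for 31.3% of the 19282 tested in both lines. The named pathway genes were picked for their large called changes within a line, which favours a difference between the lines. Their count and adjusted p-values are therefore a description. For AREG, EREG, FLT3LG and TIE1, too low in VCaP to be tested there, and for FLT4, NTRK2 and STAT5A, too low in PC3, the gene entered that fit only through the line where it is higher, so these 7 differences are given as values only and not as shown differences between the lines. Differences are the VCaP log2 fold change minus the PC3 log2 fold change, and line cannot be told apart from dose, medium, kit and strand counting. Among the members the difference was 0.97 for ERBB3, 0.92 for MET, 2.29 for AREG and 3.09 for EREG. The AREG call was lost without VCaP NSI replicate 3 (1.99), without VCaP siFOXA1 replicate 1 (1.88) and without VCaP siFOXA1 replicate 2 (2.096).

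For the ligands and binding proteins the difference was −2.03 for TGFA, 0.84 for HBEGF, −1.55 for CSF1, −2.29 for FLT3LG, −5.50 for HGF, 2.31 for IGF2, 2.08 for IGFBP3 and 3.94 for IGFBP5. HGF thus fell in VCaP and rose in PC3, where its log2 fold change was 2.21 at a mean too low for the naming rule. For the receptors it was −2.89 for EPHA7, −1.07 for EPHB3, −2.66 for FLT4, 1.37 for MERTK, 2.26 for NTRK2, 1.43 for RYK and −3.01 for TIE1.

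For the adaptors and cascade kinases it was −1.57 for AKT1, −0.68 for GAB2, 1.73 for GRB14, −0.51 for GRB7, 1.02 for PIK3R1 and 2.67 for STAT5A. For feedback inhibitors and genes induced by ERK it was 2.43 for DUSP4, 4.62 for DUSP5, 2.29 for PHLDA1, −0.64 for SH2B3, −1.53 for SPRED1 and −3.37 for SPRY4. For the proteases it was 1.09 for ADAM12, −0.76 for ADAM15, −1.10 for BACE1 and −2.39 for MMP14. Leaving aside FLT3LG, TIE1, FLT4, NTRK2 and STAT5A, the edgeR adjusted p of these pathway genes ranged from 3.23e-10 for DUSP5 to 0.0301 for GRB7. In PC3, where strand was not used, 22.6% of the BACE1 exons, 16.5% of the PHLDA1 exons and 14.5% of the AKT1 exons overlap genes on the other strand.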

How the results depend on the processing

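Over 429 recomputed member values, 394 kept their direction and their side of the call rule, as did 617 of 630 for the named pathway genes. Counts were too few to test KIT in PC3 and ERBB4, AREG and EREG in VCaP, and 3 counts in a group come to 0.00620 CPM in PC3 NSI and 0.0188 CPM in VCaP NSI. With the replicate block, PC3 had 11333 genes called. Leaving out 1 library gave 3963 to 7628 genes in PC3, and 30 to 58 pathway genes. With library size alone, 40.5% of the calls for the difference between lines were higher, against 50.1% with TMM, and 61.5% of the PC3 calls were higher without siFOXA1 replicate 1.

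The replicate block also took EGFR in PC3 (−0.22), ERBB2 in PC3 (0.32), ERBB3 in PC3 (−0.29), IGF1R in PC3 (−0.53) and the differences between lines of EGFR (−0.48) and IGF1R (0.65) past the call rule, and changed no other call of a member. In VCaP the correlations of same-numbered libraries were 0.106, 0.0232 and 0.369, so the numbers were not taken as pairs there, and the block gave 11474 genes against 10500. ERBB2 in PC3 passed with DESeq2 (0.32), library size alone (0.40), a filter of 1 CPM (0.38) and the fit of all 12 libraries (0.36), and ERBB3 in PC3 with that last fit (−0.25). The IGF1R difference passed with no filter (0.64). The AREG difference lost its call with ties rounded to even numbers (2.48). Its deposited counts of 0.5 in VCaP NSI replicate 3 and in VCaP siFOXA1 replicate 3 are then rounded down instead of up. That rule also changes ties in other genes, and the cause of the lost call was not tested.

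Signs turned only for values under their error. Under the scaling and filter settings these were the KITLG difference, MET in PC3 and EREG in PC3. The KITLG difference was −0.0519 with library size alone and −0.00624 with a filter of 1 CPM. MET in PC3 was 0.0311 and 0.0100 under the same settings, and EREG in PC3 was 0.00975 with library size alone. Leaving out 1 library gave −0.0870 to 0.10 for the KITLG difference, −0.17 to 0.0624 for the ERBB2 difference, −0.12 to 0.0457 for MET in PC3 and −0.20 to 0.0339 for EREG in PC3. It gave 0.26 to 0.47 for ERBB2 in PC3, 0.23 to 0.39 for ERBB2 in VCaP, −0.67 to −0.32 for IGF1R in PC3, 0.41 to 0.78 for the IGF1R difference and 1.88 to 2.77 for the AREG difference.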
